A study of Arabidopsis thaliana with 24 samples.

Results

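The genes described here are 10 transcripts known to respond to the hormone jasmonate in Arabidopsis thaliana, out of 16183 genes in the deposited table. They were chosen by name and by locus: the JAZ genes JAZ1 (AT1G19180), JAZ2 (AT1G74950), JAZ5 (AT1G17380), JAZ6 (AT1G72450), JAZ9 (AT1G70700) and JAZ10 (AT5G13220), the cytochrome P450 genes CYP94B3 (AT3G48520) and CYP94C1 (AT2G27690), and the vegetative storage protein genes VSP1 (AT5G24780) and VSP2 (AT5G24770). All 10 had counts in the table. The filter on low counts kept 8 of them in roots (JAZ9 and JAZ10 fell under it) and 5 in shoots (JAZ6, both CYP94 genes and both VSP genes), so no count below covers all of them in either organ.

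Jasmonate is made from membrane lipids and is active as its conjugate with isoleucine, which brings the receptor COI1 and a JAZ protein together and leads to the breakdown of the JAZ repressor. The MYC transcription factors that JAZ proteins hold back then switch on a first wave of genes, among them the JAZ genes themselves, and the CYP94 enzymes that oxidise and so remove the active conjugate. VSP genes are a classical readout of the MYC branch of the pathway in aerial tissue after wounding, herbivory or jasmonate.

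The study exposed wild-type seedlings of the Columbia-0 ecotype, 7 days old, to solutions with or without salicylhydroxamic acid (SHAM), a phenolic hydroxamate best known as an inhibitor of the mitochondrial alternative oxidase and also of lipoxygenases. There were 8 groups of 3 libraries: roots and shoots of seedlings kept in water for 1 h, and roots and shoots of seedlings kept in SHAM for 1, 2 or 3 h. Each replicate pooled 30 to 50 seedlings, and root and shoot were cut apart after the treatment. Growth was on medium holding 1% sucrose, at 21 °C, with 16 h of light a day. The labels disagree on the solution: the treatment of each sample names 1 mM SHAM, while the protocol text names 0.1 mM SHAM in one place and 30% polyethylene glycol (PEG) with 1 mM SHAM in another. The SHAM groups are therefore named as labelled, and SHAM and a PEG osmotic shock cannot be told apart. Water was collected at 1 h alone, so at 2 and 3 h the difference from water also holds the time in solution, and the hour of harvest is not given. Nothing else in the labels says how the 3 replicates of a group were separated, so p-values measure the spread between these libraries.

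Libraries held 862731 to 3622300 counts of 3′ end reads, and a level below is counts per 1000000 counts of a library (CPM). A shift in CPM in whole organs does not tell fewer cells with the transcript from less transcript per cell. A list of 9 leaf and photosynthesis genes took 7.77 to 11.0% of the counts in shoots and 0.0244 to 0.141% in 11 of the 12 root libraries. The exception was replicate 1 of root SHAM 1 h with 1.43%, so root values at 1 h are given below also without it where that matters. A list of 9 root genes took 0.274 to 0.344% in root water and 0.0834 to 0.149% in SHAM roots. In shoots it took 0.00220 to 0.0316%, the highest in replicate 1 of shoot SHAM 1 h. The lower share of this list in SHAM roots goes with every root difference from water below, and its part in them was not tested.

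CYP94C1, which carries the oxidation of the jasmonate conjugate on to its carboxylated form, had the strongest evidence of change among the members. In roots it stood at 4.23, 2.32 and 4.25 CPM in the 3 water libraries and at 31.8, 39.7 and 33.4 CPM after 1 h of SHAM. It was at 4.92, 11.3 and 11.9 CPM after 2 h and at 8.06, 7.85 and 11.2 CPM after 3 h. Every SHAM library of each time was above every water library, with 1 h far above the others. How many of all genes have libraries that separate in this way was not counted, here or below. The log2 fold change from water was 3.44 ± 0.40 at 1 h, 1.64 ± 0.42 at 2 h and 1.62 ± 0.42 at 3 h (± SE, edgeR quasi-likelihood test, adjusted p = 8.03e-05, 0.0179 and 0.0161, n = 3 in each group). The later rises rest on few libraries: the adjusted p passed 0.05 at 2 h without water replicate 1 (0.0545) or without SHAM replicate 2 (0.0596) or 3 (0.0783), and at 3 h without water replicate 1 (0.0511) or SHAM replicate 3 (0.0726).

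In shoots CYP94C1 stood at 4.45, 5.80 and 6.07 CPM in water and at 39.5, 32.9 and 26.9 CPM after 1 h of SHAM. It was at 13.9, 21.6 and 8.00 CPM after 2 h and at 22.9, 21.3 and 22.2 CPM after 3 h. No SHAM library overlapped the water libraries, and the 2 h group was the most scattered. The log2 fold change from water was 2.82 ± 0.33 at 1 h, 1.46 ± 0.33 at 2 h and 2.01 ± 0.32 at 3 h (edgeR, adjusted p = 5.46e-05, 0.00784 and 0.00116). These 3 calls, like that of CYP94C1 at 1 h in roots and those of CYP94B3 at 1 h in both organs, held without each library in turn and under each other setting tried.

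CYP94B3, the enzyme that 12-hydroxylates the conjugate, differed more between the organs. In roots it stood at 26.4, 12.8 and 22.8 CPM in water and at 54.8, 39.1 and 46.1 CPM after 1 h of SHAM. All 3 SHAM libraries were above the water libraries, and the log2 fold change was 1.38 ± 0.30 (edgeR, adjusted p = 0.00894). At 2 h it overlapped the water libraries, at 15.5, 18.4 and 15.1 CPM, and at 3 h at 16.9, 12.1 and 14.6 CPM. The log2 differences from water were then -0.05 ± 0.31 and -0.19 ± 0.31, and neither passed the test.

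In shoots CYP94B3 was close to absent in water, with 2, 0 and 3 counts (1.48, 0 and 0.828 CPM). It reached 24.8, 7.84 and 5.92 CPM after 1 h of SHAM, a log2 fold change of 4.16 ± 0.76 (edgeR, adjusted p = 0.00181). Its 3 SHAM libraries spread widely, with replicate 1 far above replicates 2 and 3, while all stood above water. Replicate 1 also had the highest share of the root gene list among shoot libraries, and the part of this in the rise was not tested. Pooled over the group, 50 counts against 5 gave a ratio of 13.1 (exact 95% counting interval 5.24 to 42.0, counting error only). At 2 h it was at 3.63, 5.70 and 2.91 CPM and at 3 h at 3.64, 2.80 and 2.97 CPM, in each library still above the water libraries. The log2 differences of 2.43 ± 0.79 and 2.00 ± 0.81 missed the threshold (edgeR, adjusted p = 0.0508 and 0.15), the first by little. DESeq2 (0.0418) and edgeR with no filter (0.0317) called the 2 h value, as did the authors' deposited table, with a log2 fold change of 2.52 and an adjusted p of 0.0261.

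**Figure D1:**
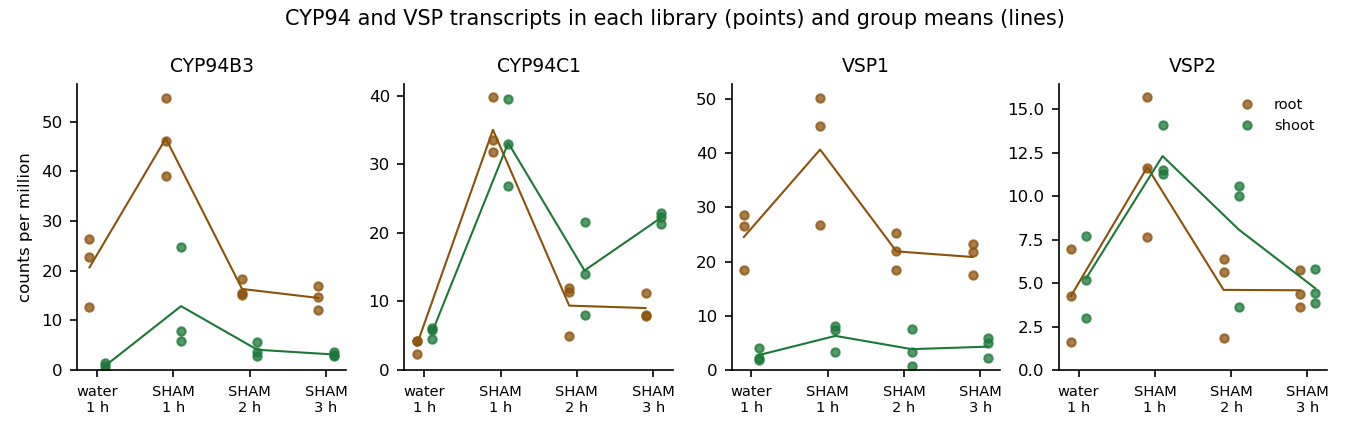
Level of the CYP94 and VSP transcripts in CPM of each library (points) and the mean of each group of 3 (lines), for water 1 h and SHAM 1, 2 and 3 h in roots (brown) and shoots (green), each panel with its own axis. CYP94C1 peaks at 1 h in both organs, with every SHAM 1 h library at 26.9 CPM or above and every water library at 6.07 CPM or below.

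Between 1 and 2 h of SHAM both CYP94 genes dropped in roots. The step was -1.42 ± 0.30 for CYP94B3 and -1.79 ± 0.35 for CYP94C1 on the log2 scale (edgeR, adjusted p = 0.0202 and 0.0157), against a background of 4.1% of the tested root genes called in either direction (1.81% lower). All 2 h root libraries were below all 1 h libraries for each gene. In shoots CYP94C1 fell by 1.35 ± 0.29 (adjusted p = 0.0174), where 5.9% of tested genes were called (3.2% lower). CYP94B3 in shoots had a step of -1.73 ± 0.60 that missed the threshold here (adjusted p = 0.102), while the authors' deposited table called it with an adjusted p of 0.0316, and it was called without SHAM 1 h replicate 3 (0.0332). These steps were less firm than the rises from water. A fit of the 1 h and 2 h libraries alone ended these calls, with an adjusted p of 0.0709 (CYP94B3) and 0.0793 (CYP94C1) in roots and 0.0805 (CYP94C1) in shoots. Leaving out a single library left 0 to 2 calls in each organ: in roots SHAM 1 h replicate 1 and SHAM 2 h replicates 1 and 2 each ended the CYP94B3 call, and SHAM 2 h replicate 3 ended both. In shoots the CYP94C1 call was lost without SHAM 1 h replicate 1 or 2 and without SHAM 2 h replicate 1 or 3. From 2 to 3 h edgeR called none of the members in roots, where it called 0% of all genes, and none in shoots, where it called 8.94%. At an unadjusted p under 0.05 edgeR gave 0 in roots and 1 in shoots (VSP2, unadjusted p = 0.0493 by edgeR), and DESeq2 called 0 in both. Of all tested genes, 176 of 10642 in roots and 2127 of 8570 in shoots reached that unadjusted p, and DESeq2 called 0 and 961.

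VSP1 and VSP2 encode acid phosphatases that accumulate in vegetative tissue, and VSP2 is known for activity against insects. The 2 genes are neighbours by locus number and close copies, so how the counting divided reads between them is not known and each value on its own is uncertain. In roots VSP2 stood at 4.23, 6.95 and 1.59 CPM in water and at 7.64, 15.7 and 11.6 CPM after 1 h of SHAM. In shoots it stood at 2.97, 5.16 and 7.73 CPM in water and at 11.3, 11.5 and 14.1 CPM after 1 h. The groups did not overlap in either organ.

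VSP2 was called higher at 1 h in roots, with a log2 fold change of 1.83 ± 0.55 (edgeR, adjusted p = 0.0449), and in shoots, with 1.40 ± 0.39 (adjusted p = 0.0257). Both calls lay close to the threshold. Scaling by library size alone ended both (adjusted p 0.0703 in roots and 0.0903 in shoots), and a fit with no filter ended that in shoots (0.0721). The root call was lost without any 1 of 5 of the 6 libraries, all but SHAM replicate 1 (adjusted p 0.0519 to 0.143), and in a fit of the 2 groups alone (0.0807). The shoot call was lost without any 1 of 4 libraries (water replicates 1 and 2, SHAM replicates 2 and 3, adjusted p 0.0695 to 0.0804), and the authors' deposited table did not make it (adjusted p 0.0905). At 2 h VSP2 was at 5.62, 6.37 and 1.83 CPM in roots and at 9.99, 10.6 and 3.63 CPM in shoots. At 3 h it was at 4.40, 3.62 and 5.74 CPM in roots and at 5.82, 3.85 and 4.45 CPM in shoots. These levels overlapped water, and none of the 4 differences passed the test, with log2 values from -0.21 ± 0.41 to 0.64 ± 0.39.

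As counted, VSP1 was mainly a root transcript in these libraries, with the division of its reads from those of VSP2 not known. It stood at 28.5, 18.5 and 26.5 CPM in root water and at 26.7, 50.2 and 45.1 CPM after 1 h of SHAM in roots. In shoots it was at 2.22, 1.93 and 4.14 CPM in water and at 3.39, 7.32 and 8.19 CPM after 1 h. In each organ 1 SHAM library, replicate 1, lay within the range of the water libraries. The log2 differences of 0.96 ± 0.31 in roots and 1.41 ± 0.62 in shoots were not called (edgeR, adjusted p = 0.0562 and 0.145), while DESeq2 called the root value (0.0453). The root replicate is the one with the high share of leaf transcripts: without it the difference in roots was 1.27 and was called (adjusted p = 0.0192). With the 2 VSP genes counted as 1 feature, VSP was called at 1 h in both organs, with 1.10 in roots (adjusted p = 0.0274) and 1.42 in shoots (adjusted p = 0.0256). At 2 and 3 h VSP1 had log2 differences from 0.11 ± 0.32 to 0.62 ± 0.62, none called.

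Shares of counts within each pair separated the organs. CYP94C1 took 14.8% of the counts of the CYP94 pair in root water (18 of 122, exact 95% interval 8.98 to 22.3, counting error only) and 88.1% in shoot water (37 of 42, 74.4 to 96.0). After 1 h of SHAM the share was 43.8% in roots (39.8 to 47.7) and 75.8% in shoots (69.4 to 81.5). In single root libraries it was 13.8 to 15.7% in water and 36.8 to 50.4% at 1 h, with no overlap, and it stayed at 24.1 to 44.1% at 2 h and 32.4 to 43.3% at 3 h. VSP2 took 12.4% of the VSP counts in root water (17 of 137, 7.40 to 19.1) and 65.6% in shoot water (40 of 61, 52.3 to 77.3). At 1 h it took 22.6% in roots and 64.3% in shoots. Library by library, no root exceeded 27.3% and no shoot fell under 44.0%.

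**Figure D2:**
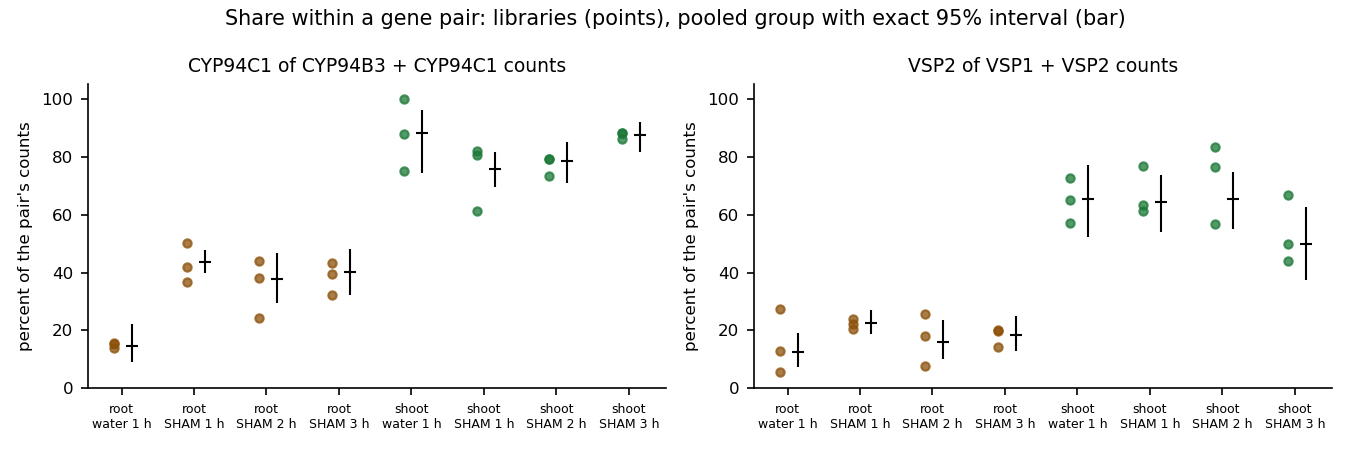
Percent of the CYP94B3 and CYP94C1 counts that were CYP94C1 (left) and of the VSP1 and VSP2 counts that were VSP2 (right), for each library (points) and for the pooled group with its exact 95% counting interval (bars). The CYP94C1 share in root libraries runs from 13.8 to 15.7% in water and from 24.1 to 50.4% in SHAM, and every shoot library is at 61.4% or above.

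None of the tested JAZ genes among the 10 members was called by edgeR in any comparison of SHAM with water. In roots, where 4 JAZ genes were tested, edgeR and DESeq2 both called 0 of 4 at 1, 2 and 3 h, and an unadjusted p under 0.05 was reached by 1 at 1 h (JAZ5), 0 at 2 h and 0 at 3 h. Of all tested root genes edgeR called 12.2%, 14% and 16.4% at these times, and 3475, 3026 and 3245 of 10642 reached the unadjusted p. With 4 genes, such counts do not set the JAZ genes apart from all genes. In shoots 1 JAZ gene was tested (JAZ6), and it was not called by either tool and had no unadjusted p under 0.05. There edgeR called 16.8%, 15.8% and 9% of all tested genes at 1, 2 and 3 h. Counts of the JAZ genes were low. In root water the 6 JAZ genes together had 61, 34 and 70 counts and in shoot water 20, 8 and 31.

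JAZ1, a repressor that binds MYC2, was the most frequent of the 6 in roots, with 46.1% of the JAZ counts in root water (76 of 165) and 18.6% in shoot water (11 of 59). Its level was 15.9, 20.9 and 14.9 CPM in root water and 39.9, 9.55 and 34.9 CPM after 1 h of SHAM. Of the SHAM libraries 2 were above and 1 was below all water libraries. The log2 difference was 0.94 ± 0.47 (edgeR, adjusted p = 0.179), and it moved with single libraries. Without SHAM replicate 2, the low library, it was 1.39 and called (adjusted p = 0.0301). Without SHAM replicate 1, the highest and the one with the high share of leaf transcripts, it was 0.66 and not called (adjusted p = 0.34). At 2 h JAZ1 was at 10.5, 22.6 and 18.3 CPM (0.34 ± 0.49) and at 3 h at 19.8, 33.8 and 18.4 CPM (0.85 ± 0.48), and neither was called. In shoots JAZ1 had 0 to 13 counts a library.

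JAZ5 stood at 0.529, 0 and 5.84 CPM in root water and at 9.34, 7.08 and 8.24 CPM after 1 h of SHAM. The SHAM libraries lay above the water libraries, but water replicate 3, with 11 counts against 1 and 0 in the other two, stood apart from its group. The log2 difference of 1.95 ± 0.72 was not called (edgeR, adjusted p = 0.0848). Without water replicate 3 it was 4.55 (adjusted p = 0.011), and the differences at 2 h (3.46, adjusted p = 0.0452) and 3 h (3.93, adjusted p = 0.0192) were called too, where the full data gave 0.84 ± 0.80 and 1.32 ± 0.76. In shoots, under the filter, JAZ5 had 7 counts in water, 10 at 1 h, 12 at 2 h and 23 at 3 h over the 3 libraries of each group. The ratio of 3 h to water was 3.08 (exact 95% counting interval 1.28 to 8.50), and a fit with no filter gave an adjusted p of 0.244.

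JAZ6, a close relative of JAZ5, went the other way in roots without passing the test. It stood at 8.99, 10.4 and 11.7 CPM in root water, at 6.79, 3.08 and 3.39 CPM after 1 h, at 0.703, 5.66 and 5.50 CPM after 2 h and at 3.66, 5.43 and 3.44 CPM after 3 h. All 9 SHAM root libraries were below all 3 water libraries, a separation whose share over all genes was not counted. The log2 differences were -0.99 ± 0.52, -1.01 ± 0.55 and -0.97 ± 0.54 (edgeR, adjusted p = 0.195, 0.243 and 0.246). They share the same water libraries. In shoots JAZ6 was at 8.16, 1.29 and 1.10 CPM in water and at 6.77, 2.09 and 3.64 CPM after 1 h, which overlapped.

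JAZ10, a repressor whose transcript is widely used as a marker of jasmonate signalling, was near the limit of detection. Root water had 0, 0 and 1 count and root SHAM 1 h had 5, 2 and 7 counts. The 3 SHAM libraries were above the water libraries, and the pooled ratio of 14 counts to 1 was 8.47 with an exact 95% counting interval of 1.29 to 358. With no filter edgeR gave an adjusted p of 0.0992. Shoots had 1, 2, 1 and 0 counts over the groups water, 1 h, 2 h and 3 h. The 0 allows a level of up to 0.431 CPM at 3 counts over the group.

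JAZ2, the closest relative of JAZ1, had 3.70, 6.95 and 3.72 CPM in root water and 6.37, 1.23 and 9.21 CPM at 1 h, with a log2 difference of 0.48 ± 0.62. At 2 h (2.81, 2.12 and 2.29 CPM) and 3 h (3.66, 1.21 and 2.87 CPM) all root libraries were below water, with differences of -0.57 ± 0.71 and -0.45 ± 0.69, not called. JAZ9 had 5 to 10 counts over the 3 libraries of each root group and 4 to 16 in each shoot group, under the filter.

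**Figure D3:**
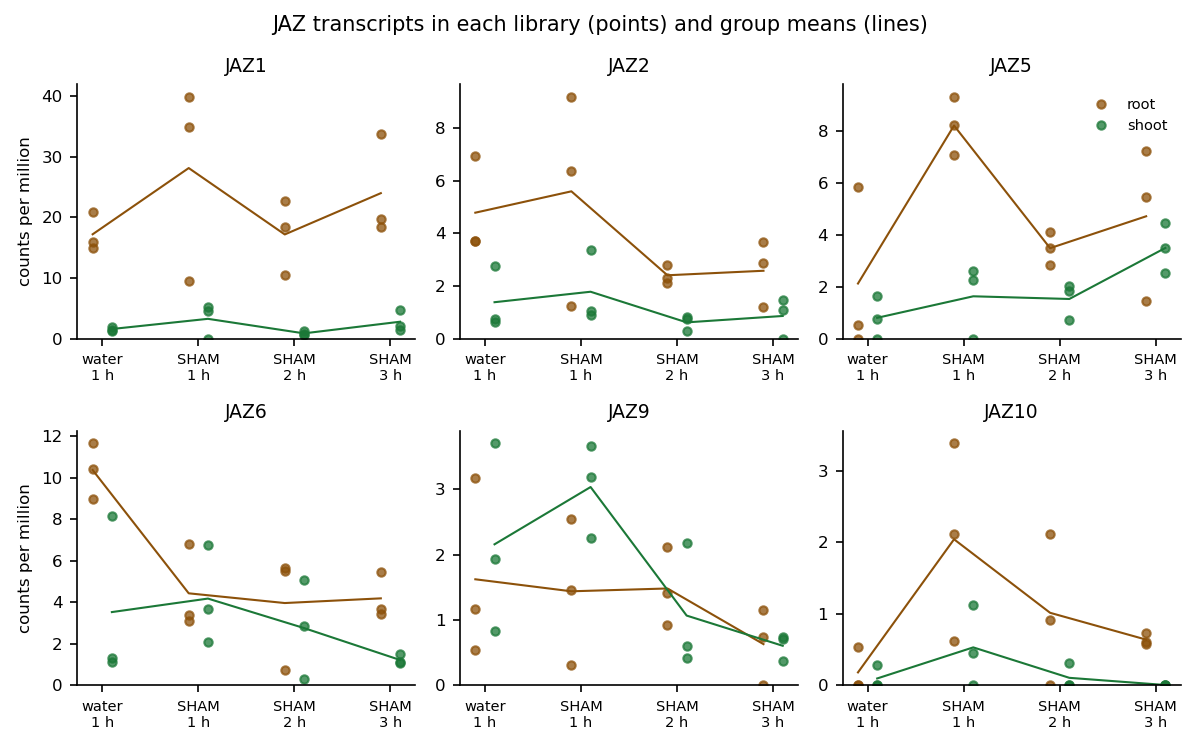
Level of the 6 JAZ transcripts in CPM of each library (points) and group means (lines), for water 1 h and SHAM 1, 2 and 3 h in roots (brown) and shoots (green), each panel with its own axis. JAZ1 and JAZ6 show 1 library far from its group in root SHAM 1 h (9.55 CPM) and shoot water (8.16 CPM), and JAZ5 in root water (5.84 CPM).

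At 1 h a larger share of the tested members than of all genes was called, and at 2 and 3 h the shares were closer. At 1 h in roots 3 of 8 tested members were called, all higher, where 12.2% of 10642 tested genes were called (7.01% higher). At 2 and 3 h in roots 1 of 8 was called each time, CYP94C1, against a background of 14% (8.6% higher) and 16.4% (9.99% higher). In shoots 3 of 5 were called higher at 1 h against 16.8% of 8570 genes (9.36% higher), and 1 of 5, again CYP94C1, at 2 and 3 h against 15.8% (8.38% higher) and 9% (6.31% higher). The median log2 difference of the tested members at 1 h was 1.17 in roots and 1.41 in shoots, beside 0.04 and 0.05 over all tested genes. At 2 and 3 h it was 0.25 and 0.36 in roots (all genes -0.08 and -0.07) and 0.64 and 0.62 in shoots (all genes -0.0027 and 0.0032). The comparisons within an organ share their water libraries. A member that passed the filter through its SHAM libraries alone had to differ, and CYP94B3 in shoots and CYP94C1 in roots are such members. The 10 genes were also chosen with earlier results of these data known. These counts and medians are therefore descriptions and do not set the members apart from all genes.

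**Figure D4:**
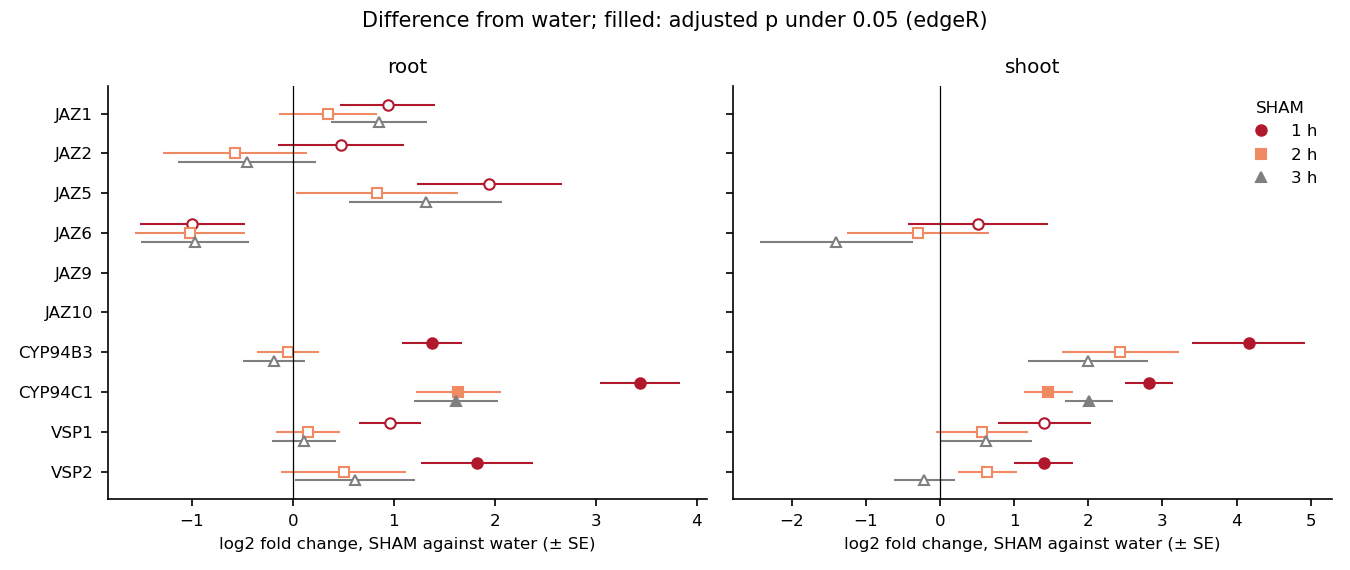
Log2 fold change of SHAM against water (points, ± SE) for the members that passed the filter, in roots (left) and shoots (right) at 1, 2 and 3 h, with filled points for an adjusted p under 0.05 (edgeR). CYP94C1 is filled at every time in both organs, CYP94B3 and VSP2 at 1 h only, and no JAZ gene is filled.

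The response to SHAM differed between the organs for 1 of the 8 members tested in the fit of all 24 libraries, where 5.93% of 11704 genes were called (1.97% higher in shoots). Of these 8, JAZ1, JAZ2 and JAZ5 fell under the filter in shoots alone, so their shoot effects rest on few counts. CYP94B3 rose more in shoots at 1 h, with a difference of 2.62 ± 0.74 between the log2 effects (edgeR, interaction term, adjusted p = 0.0363). Its root level stayed higher throughout: the 3 libraries of each root group averaged 46.6 ± 7.8 CPM (SD, n = 3) at 1 h and those of shoots 12.9 ± 10.4 CPM. The call was lost without any 1 of 7 of the 12 libraries (root water replicates 1 and 3, root SHAM replicates 2 and 3, shoot water replicates 2 and 3, shoot SHAM replicate 1, adjusted p 0.0505 to 0.128). It was also lost with root and shoot of a replicate blocked as 1 pool of seedlings (0.0764). For CYP94C1 the difference was -0.73 ± 0.50, with a 95% interval of -1.71 to 0.25, and for VSP2 it was -0.56 ± 0.69 (-1.91 to 0.79). At 2 and 3 h edgeR and DESeq2 called none of the 8 members, against 3.34% and 1.73% of genes by edgeR. An unadjusted p under 0.05 was reached by 1 member at each time, CYP94B3, with differences of 2.42 ± 0.77 (adjusted p = 0.0869) and 2.15 ± 0.78 (adjusted p = 0.181). Of all 11704 genes, 1943 at 2 h and 1631 at 3 h reached that unadjusted p, so 1 of 8 does not stand out.

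In water 5 of the 8 tested members differed between shoot and root, where 50.2% of 11704 genes did (25.1% higher and 25.1% lower in shoots). CYP94B3 was lower in shoots by -3.66 ± 0.59 on the log2 scale (edgeR, adjusted p = 1.41e-05), JAZ1 by -2.27 ± 0.70 (0.00921) and VSP1 by -1.97 ± 0.50 (0.00194), and the libraries of the 2 organs did not overlap for any of the 3 genes. The share of all genes whose libraries separate in this way was not counted, here or for the SHAM groups above. CYP94C1 was higher in shoots by 1.59 ± 0.41 (0.00242) and VSP2 by 1.58 ± 0.54 (0.0181), but both rest on the scaling between organs. Scaling by library size alone, which moves the median of all genes by -1.07, gave 0.53 (adjusted p = 0.272) and 0.51 (0.414). A fit of the 2 water groups alone called the 3 lower genes and tested neither of these, since its filter on low counts removed them. The VSP2 call was also lost without root water replicate 1 or 3 or shoot water replicate 3 (adjusted p 0.0571 to 0.157). In plain CPM the VSP2 libraries of the 2 organs overlapped. With both VSP genes as 1 feature the difference was -0.70 and not called (0.132).

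Across the 8 groups the mean of CYP94C1 ran from 3.60 ± 1.11 CPM in root water (SD, n = 3), through 5.44 ± 0.87 in shoot water, 9.03 ± 1.87 in root SHAM 3 h, 9.38 ± 3.88 in root SHAM 2 h, 14.5 ± 6.8 in shoot SHAM 2 h and 22.2 ± 0.8 in shoot SHAM 3 h, to 33.1 ± 6.3 in shoot SHAM 1 h and 35.0 ± 4.2 in root SHAM 1 h. In plain CPM root SHAM 2 and 3 h lay within each other's spread, as did the 1 h groups of both organs. The order of root groups against shoot groups rests on the scaling between organs, as in water above. The genes most like CYP94C1 over the 24 libraries, by Pearson's r of log2(CPM + 1) after subtracting the organ means among 4701 genes of at least 10 CPM, were SRC2 (AT1G09070, r = 0.95), AT2G16660 (0.90) and AT4G22240 (0.90). SRC2 stood at 167 ± 22 CPM in root water and 757 ± 96 CPM at 1 h, and at 168 ± 15 and 500 ± 44 CPM in shoots. The libraries share their treatment groups, so these coefficients largely repeat the group means. For JAZ1 the likeness was weaker, at most 0.68 (AT1G50740), followed by AT3G41768, an rRNA gene (0.64), and SAP7 (0.63). For VSP2 over the 12 shoot libraries the nearest were MS2, a methionine synthase (0.92), FBA2, an aldolase (0.90), and UGP1, a UDP-glucose pyrophosphorylase (0.90).

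Other genes of the pathway were taken from 5 lists, 36 genes in all, of which 27 were in the table. Of 19 tested in roots, 6 rose and 1 fell at 1 h, 7 rose and 1 fell at 2 h, and 8 rose and 0 fell at 3 h. Of all genes tested in roots, 12.2%, 14% and 16.4% were called at these times. Of 20 tested in shoots, 3 rose and 2 fell at 1 h, 5 rose and 3 fell at 2 h, and 4 rose and 0 fell at 3 h, where 16.8%, 15.8% and 9% of all genes were called. Of the enzymes that turn jasmonate over, 4 of 5 tested rose in roots at each time and 3 of 6 in shoots at each time, none was called lower by edgeR, and their median log2 difference at 1 h was 2.13 in roots and 1.79 in shoots.

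AT2G38240, a 2-oxoglutarate and Fe(II)-dependent oxygenase by its annotation, had the largest fold of these enzymes in roots. It averaged 9.63 ± 5.59 CPM in root water and 266 ± 81 CPM at 1 h (SD, n = 3), a log2 fold change of 5.02 ± 0.84 (edgeR, adjusted p = 0.00185), and in shoots it went from 2.64 ± 1.19 to 20.0 ± 5.4 CPM (3.00 ± 0.62, adjusted p = 0.00397). It was called at every time in both organs. The root call at 3 h was lost without water replicate 1 or 2 or SHAM replicate 1 (1.71 without the last, adjusted p = 0.134), and the shoot call at 2 h without SHAM replicate 2 (1.41, adjusted p = 0.0523). CYP94B1, a relative of CYP94B3 that also 12-hydroxylates the conjugate, rose at 1 h by 2.40 ± 0.43 in roots and 2.12 ± 0.54 in shoots, and at 2 h in roots by 1.45 ± 0.43. AT5G05600, of the same oxygenase family as AT2G38240, rose at every time in both organs, by 1.19 ± 0.35 to 2.04 ± 0.26, but the lowest of these, in shoots at 2 h, was lost without any 1 of 5 of the 6 libraries, all but SHAM replicate 3 (adjusted p up to 0.12). ST2A, a sulfotransferase acting on 12-hydroxyjasmonate, rose in roots at each time (2.13 to 2.42) and in shoots at 2 h (3.05 ± 0.84). Each of these 4 calls was lost without 1 or more single libraries, water replicate 1 in every case (adjusted p up to 0.111). IAR3, which splits amino acid conjugates, rose at 3 h in roots (1.45 ± 0.43) and shoots (0.89 ± 0.24), where the call was lost without any 1 of the 6 libraries (adjusted p 0.0501 to 0.145). In roots AT5G05600 at 1 h, CYP94B1 at 2 h and IAR3 at 3 h are named beyond the 3 largest of the list, after their values were seen, and were not fitted under the alternatives. The CYP94B1 call in shoots was lost without water replicate 2 (adjusted p = 0.0501).

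Of the receptor, the corepressors and the MYC-type factors, 8 were tested in each organ. EdgeR called 0 in roots at 1 h and at 3 h, and 1 lower at 2 h: MYC2, the main transcription factor that JAZ proteins repress, which went from 49.4 ± 11.9 to 15.9 ± 4.6 CPM (-1.31 ± 0.32, adjusted p = 0.0147). The MYC2 call was lost without water replicate 1 or SHAM replicate 1 or 3 (adjusted p up to 0.0924). In shoots JAM1, a bHLH repressor of the response, fell at 1 h (-1.67 ± 0.40) and 2 h (-1.14 ± 0.36), the receptor gene COI1 was lower at 2 h (-2.03 ± 0.56, adjusted p = 0.0245), and 0 of 8 were called at 3 h. The JAM1 call at 1 h was lost without water replicate 3 (0.0686), that at 2 h without any 1 of 5 of the 6 libraries, all but water replicate 1 (up to 0.218), with no filter (0.146) and by DESeq2. The COI1 call was lost without water replicate 2 or 3 or SHAM replicate 1 (up to 0.108). For the 3 counts of 0, an unadjusted p under 0.05 was reached by 2 genes in roots at 1 h, 1 at 3 h and 2 in shoots at 3 h, and DESeq2 called 0, 0 and 1. In these 3 comparisons edgeR called 12.2%, 16.4% and 9% of all tested genes. The unadjusted p was reached by 3475 and 3245 of 10642 in roots and 2007 of 8570 in shoots.

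Of the other JAZ genes 2 were tested in roots and 1 in shoots. JAZ12 rose in roots at 3 h, from 114 ± 10 to 145 ± 19 CPM (0.69 ± 0.22, edgeR, adjusted p = 0.0403). That call was lost without any 1 of the 6 libraries (adjusted p 0.0593 to 0.113), with no filter, in a fit of the 2 groups alone, and under library size scaling, where the value was 0.33 (0.287). EdgeR made no other call against water in this list, and DESeq2 also called 1 of the 2 genes in roots at 1 h. Other response genes of the MYC branch were mixed. TAT3, a tyrosine aminotransferase, had 0 counts in root water and 53 counts at 1 h, at least 10.7-fold higher at 3 counts over the water group, and at least 6.16-fold and 13.8-fold higher at 2 and 3 h. NAC055, a transcription factor, rose in roots at 2 h (3.58 ± 0.51) and 3 h (3.66 ± 0.51) and in shoots at 2 h (1.13 ± 0.26). CLH1, a chlorophyllase, fell in shoots at 1 h (-1.32 ± 0.25) and 2 h (-1.94 ± 0.26) and was back at 60.7 ± 11.4 CPM at 3 h beside 59.9 ± 7.6 CPM in water.

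In the ERF branch, which ethylene and jasmonate drive together, ERF1 rose in roots at every time. It had 3 counts in root water and 49, 82 and 131 counts at 1, 2 and 3 h, ratios of 9.88 (exact 95% counting interval 3.19 to 49.6), 25.3 (8.34 to 125) and 31.1 (10.4 to 153). In shoots it rose at 2 h (2.46 ± 0.67) and 3 h (2.29 ± 0.67). These shoot calls were lost without any 1 of 3 libraries at 2 h (water replicates 2 and 3, SHAM replicate 1, adjusted p up to 0.102) and of 5 at 3 h (all but water replicate 1, up to 0.17). ORA59, an activator of the same branch, fell in roots at 1 h, from 16.5 ± 4.8 to 5.72 ± 0.71 CPM (-1.26 ± 0.36, adjusted p = 0.0349). The ORA59 call was lost without any 1 of the 6 libraries (adjusted p 0.0552 to 0.142), with no filter and in a fit of the 2 groups alone (0.0761).

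**Figure D5:**
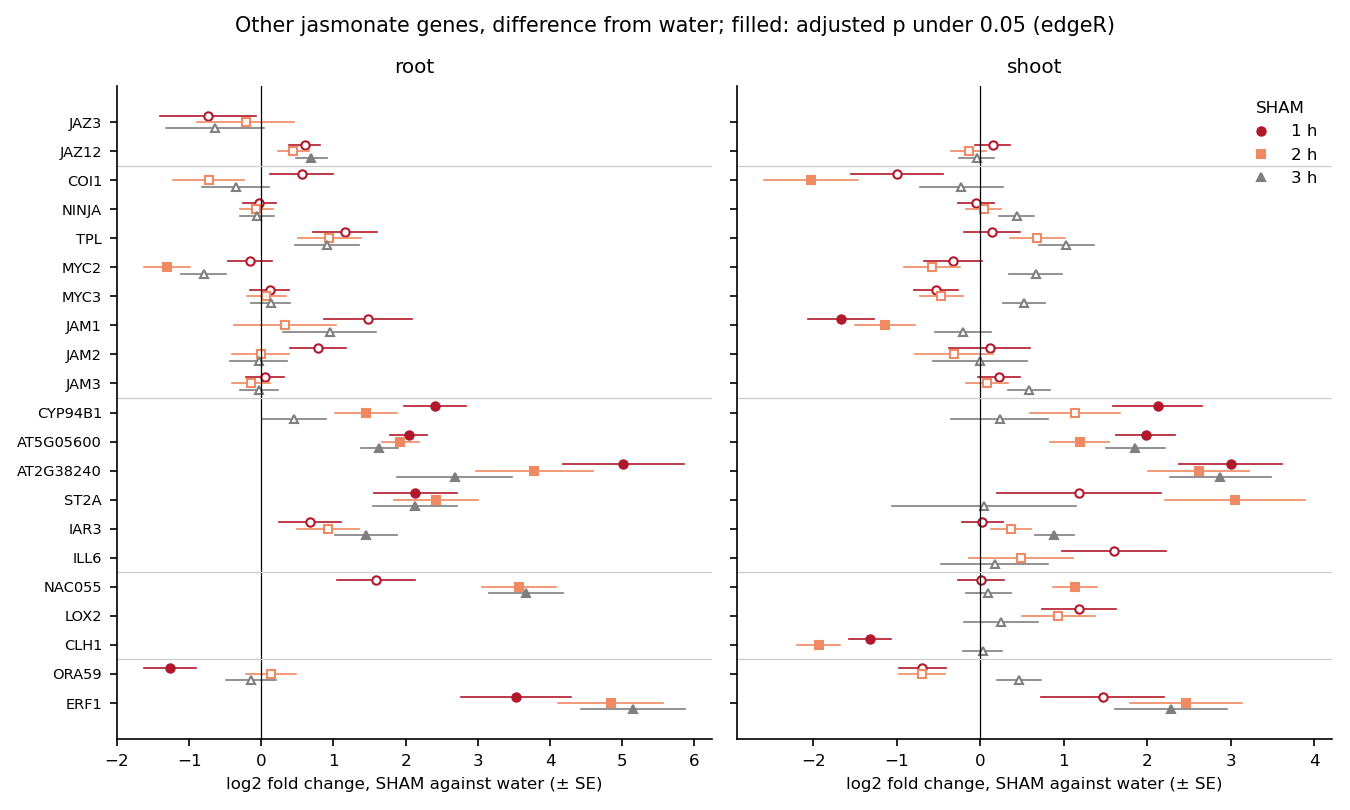
Log2 fold change of SHAM against water (points, ± SE) for the tested genes of the 5 other jasmonate lists, separated by grey lines, in roots (left) and shoots (right) at 1, 2 and 3 h, with filled points for an adjusted p under 0.05 (edgeR). TAT3 in roots is left out because it had 0 counts in water, and the turnover enzymes CYP94B1 to ILL6 hold most of the filled points to the right of 0.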

How the data were processed

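RNA of roots and shoots was made into MARS-seq libraries, which count the 3′ end of transcripts, so counts were not divided by transcript length. The authors deposited whole-number counts per gene and library, with no further scaling. The submitters' processing notes list STAR 2.4.2a, HTSeq, DESeq2, cutadapt and bcl2fastq, without role or order. The genome build, the strand setting and the treatment of molecular identifiers are not given in the sources used here, so no coordinates or sequences are printed. The authors also deposited log2 fold changes, adjusted p-values and calls for 11 comparisons, quoted only where named, with the sign turned to the direction used here. Another 48 columns of per-sample values (normalized and transformed) were not used.

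Counts were tested in R 4.3.3 with edgeR 4.0.16 (quasi-likelihood test, limma 3.58.1), with TMM scaling, after a filter on low counts (filterByExpr, min.count of 10, min.total.count of 15), over 10642 genes in the 12 root libraries and 8570 in the 12 shoot libraries. Organ comparisons used all 24 libraries and 11704 genes. A call is a Benjamini-Hochberg adjusted p under 0.05 over all genes tested. SE was taken as the absolute log2 difference divided by √F, and 95% intervals of differences are normal. CPM uses the library total, so CPM ratios and folds can differ. Counting intervals are exact, and a group at 0 is set to 3 counts over the group; both cover counting error only. DESeq2 1.42.0 was an alternative. The procedure was tested on simulated counts.

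The 10 genes, the other lists and the rule for named genes (all 10 members, up to 3 called genes per other list and comparison with the largest change, and the 3 genes most like CYP94C1, JAZ1 and VSP2) were chosen with earlier results of these data known, so no p adjusted over a list is given. Replicate numbers were not used as pairs. Deviations from the group means correlated above 0.1 in 11 of 36 pairs of same-numbered libraries within an organ. They did so in 3 of 12 same-numbered pairs of root and shoot of 1 treatment (range over both kinds -0.63 to 0.58). Locus names were matched to TAIR10.1 for 16082 of 16183 genes. Alternatives were other scalings, no filter, DESeq2, a replicate block, a stricter threshold, only the groups compared, each library left out and both VSP genes summed. Figures were drawn with matplotlib 3.10.9 in python 3.11.15.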

Additional observations from a re-analysis of the deposited data

Results flagged for a closer look

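CYP94B3 responded differently in the 2 organs after 1 h of SHAM by a test of the difference itself: the log2 effect was 2.62 ± 0.74 larger in shoots than in roots (edgeR, interaction term, adjusted p = 0.0363). The level rose in 3 of 3 SHAM libraries above every water library in each organ. The shoot effect starts from 5 counts over the 3 water libraries, and shoot SHAM replicate 1 (24.8 CPM) stood well above replicates 2 and 3 (7.84 and 5.92 CPM). Replicate 1 also had the highest share of the root gene list among shoot libraries, 0.0316% beside 0.0127 and 0.00929% in replicates 2 and 3. CYP94B3 was higher in roots, and the part of root tissue in this library was not tested. Without that library the difference was 1.87 and was not called (adjusted p = 0.127), and the call was lost without 6 other single libraries of the 12. Root and shoot were cut apart after the treatment, but the labels do not say that equal replicate numbers mark the same seedlings. A block that treats equal numbers as 1 pool gave an adjusted p of 0.0764. A fit of only the groups compared gave 0.118 and one with no filter 0.0551, so the difference between organs rests on the choice of fit.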

How the results depend on the processing

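Of the member counts given above, those at 1 h against water, at 3 h in shoots, from 2 to 3 h and for the organ differences at 2 and 3 h stayed within 1.5 times of their value under every alternative. At an adjusted p under 0.01 the count was 0 for roots at 2 h and 3 h, for both steps from 1 to 2 h and for the organ difference at 1 h. A fit of only the groups compared gave 0 for roots at 2 h, for both steps from 1 to 2 h and for the organ difference at 1 h, and 3 for water, in part because its filter removed CYP94C1 (roots at 2 h) or CYP94C1 and VSP2 (water). Scaling by library size alone gave 0 for the shoot step from 1 to 2 h. With no filter the count was 2 for shoots at 2 h and 0 for the organ difference at 1 h, and DESeq2 gave 2 for shoots at 2 h. The cause was not tested for the other changes. Leaving out 1 library gave 2 to 4 for roots and 2 to 3 for shoots at 1 h, 0 to 2 for roots at 2 h and at 3 h and for both steps from 1 to 2 h, 0 to 1 for the organ difference at 1 h, and 4 to 6 for water. The 1 called member value that changed sign was VSP2 in shoot against root water, -0.70 with both VSP genes summed, where VSP2 is 12.4% of the summed counts in root water. Some values near 0 that were not called, such as CYP94B3 in roots at 2 h (-0.39 to 0.0014), also crossed 0.

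With the replicate number as a block the member counts were 2 for roots and 2 for shoots at 1 h, where VSP2 was lost (adjusted p = 0.0625 and 0.0539), and the block changed no other member call. Of the other genes named, it ended the calls of JAZ12 and AT2G38240 (3 h) and ORA59 (1 h) in roots and of AT5G05600, COI1, JAM1 and ST2A (2 h), IAR3 (3 h) and ERF1 (2 and 3 h) in shoots. Treating root and shoot of a number as 1 pool gave 0 for the organ difference at 1 h (CYP94B3 adjusted p = 0.0764). Only 4 of 24 libraries correlated best with their own number in the other organ. Such a screen cannot undo a pairing set by the harvest, and the organ tests without this block leave any such pairing out.

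Counts over all genes moved more. Across the alternatives other than leaving out a library, the 1302, 1490 and 1744 root calls ran from 419 to 1670, 695 to 2060 and 809 to 2216, and the 1444, 1356 and 771 shoot calls from 752 to 1530, 668 to 1515 and 361 to 949. The steps from 1 to 2 h ran from 0 to 745 in roots (436 as reported) and 109 to 779 in shoots (506), the shoot step to 3 h from 223 to 961 (766), the organ differences from 156 to 900 (694), 154 to 619 (391) and 67 to 385 (202), and water from 4455 to 8088 (5877). Without 1 library the root counts were 510 to 1533, 822 to 1136 and 1001 to 1718, the shoot counts 898 to 1449, 761 to 1201 and 417 to 729, and the steps 58 to 369 (roots), 87 to 1149 and 294 to 645 (shoots), the organ differences 308 to 1127, 195 to 341 and 79 to 150, and water 5049 to 5904. Library size alone moved the median of all genes by -0.25 to -0.36 in roots and by up to -0.25 in shoots against water, and by 0.12 to 0.40 for the organ differences. Median-ratio size factors moved it by 0.16 and 0.11 for the organ differences at 1 and 2 h and by -0.19 for water. JAZ9 and JAZ10 had 0 to 16 counts in any group and could not be tested after the filter on low counts.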
